A study of Mus musculus with 8 samples.

Results

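The 34 immediate-early activation genes were followed through 8 RNA libraries made from sorted CD8+ T cells of the mouse spleen. They were taken by symbol, as the early response genes that antigen receptor, cytokine or stress signals switch on within minutes: 7 AP-1 subunits and relatives, 3 EGR factors, 3 NR4A receptors, 3 IER proteins, 4 dual-specificity phosphatases, 2 TTP family proteins, 2 BTG proteins, 2 KLF factors, 3 feedback inhibitors of NF-kB, 3 genes of the stress response and GADD45 group, and the surface and G-protein regulators Cd69 and Rgs1. All 34 were found among the 29426 gene symbols of the count table. Of these, 33 were among the 12313 genes with enough counts for testing; Atf3, a stress-induced relative of the AP-1 subunits, was not.

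The design crossed 2 genotype labels, WT and mCre, with 2 subset labels, TN and MP, in 4 groups with 2 libraries each. The subset labels (TN/VM in the design text) are not spelled out in the labels. The sort used CD44 and CD122, surface proteins that separate memory-phenotype CD8+ T cells from other cells of the naive pool, after staining for CD8, CD4 and viability. What mCre stands for is likewise not spelled out: Cre and miR-29 both occur in the title of the series, but no label gives the allele, the promoter that drives Cre or the strain. No treatment is named for any group. Spleens were adult or neonatal, with no age stated per library; RNA came from a fixed number of sorted cells. Nothing states that the 2 libraries of a group came from separate animals. The p-values therefore rest on a spread between libraries within groups that may be technical, estimated over the 4 groups together.

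Immediate-early genes are transcribed from promoters that stand ready in resting cells, through factors such as SRF, CREB and NF-kB that signalling activates without new protein synthesis. In T cells, receptor signals reach them through calcium, MAP kinases and NF-kB. Their products include transcription factors (FOS and JUN, EGR, NR4A) and brakes on the same signals (DUSP phosphatases, IkB proteins, A20, and proteins that destroy short-lived mRNAs). The same genes also respond to mechanical and enzymatic handling of tissue.

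Library totals ran from 13479586 to 30057658 counts. The libraries carried CD8 T cell transcripts at a summed level of 5900 to 6290 counts scaled to library size (CPM) over 7 markers, and Cd4 at no more than 0.366 CPM. Other markers of CD4 and regulatory T cells differed between MP and TN (log2 fold changes in WT and mCre). Zbtb7b (3.71 and 2.82) and Ctla4 (1.97 and 2.45) were higher in MP. Foxp3 was lower in WT (-1.48) and not called in mCre (-0.52), and Ikzf2 was higher in WT (0.35) and lower in mCre (-1.01). B cell markers summed to 17.7 to 25.7 CPM over 8 genes. Of 5 tested, 1 was called between MP and TN: Cd22 was higher in MP of both genotypes (5.02 and 5.86). Of 8 NK cell markers, 8 were higher in MP than in TN in both genotypes, with sums of 366 to 396 CPM in TN and 735 to 770 CPM in MP; Nkg7 and Eomes, which CD8+ T cells also express, made up most of the sum, and the NK receptor gene Ncr1 was at 0 in all TN libraries and at most 0.686 CPM in MP. In such bulk samples, fewer cells of a type and less RNA per cell cannot be told apart.

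Promoter sequences of members that rose, fell or were not called are shown for the elements they share. RefSeq promoters (GRCm38.p6, 250 bases before to 50 after the start) were matched for 28 of the 34 genes; Egr1, Egr3, Nfkbiz, Cd69, Ier2 and Rgs1 were not in the table. Both strands were searched for 5 motifs. The CArG box, the element SRF binds, stood in a promoter of 3 of the 28 genes (10.7%; 1.81% of all 27025 genes with a promoter in the table), namely Egr2, Dusp5 and Zfp36. The stretches below end at the base before the start and read 5′ to 3′ on the gene's strand, with the motifs in capitals.
Egr2: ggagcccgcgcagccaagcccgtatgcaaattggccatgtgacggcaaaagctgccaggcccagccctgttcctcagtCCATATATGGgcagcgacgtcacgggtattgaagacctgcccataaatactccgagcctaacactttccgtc
Dusp5: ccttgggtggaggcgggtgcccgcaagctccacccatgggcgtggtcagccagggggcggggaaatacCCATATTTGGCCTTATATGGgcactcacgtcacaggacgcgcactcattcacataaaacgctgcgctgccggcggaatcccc
Zfp36: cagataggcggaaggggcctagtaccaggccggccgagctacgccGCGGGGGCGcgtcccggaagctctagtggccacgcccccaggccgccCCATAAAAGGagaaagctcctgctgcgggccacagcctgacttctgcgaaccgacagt
These lie at chr10:67537719-67537868, plus strand (Egr2, 1 of several annotated starts), chr19:53528995-53529144, plus strand (Dusp5) and chr7:28379229-28379378, minus strand (Zfp36). The Dusp5 stretch has 2 CArG boxes side by side, and that of Zfp36 also has an EGR site (GCGNGGGCG). The 3 genes sharing the box are shown together to set beside their RNA values: as given below, Egr2 fell in MP cells and Dusp5 rose, while Zfp36 had small negative values that passed the test under some settings only.

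Over all 32851 promoters of this length, 1.63% held a CArG box, 5.55% an EGR site, 4.51% an NF-kB site, 1.79% a CRE and 7.81% an AP-1 site; a gene can have several promoters, so the shares that follow are per gene. The EGR site stood in a promoter of 9 of the 28 genes (32.1%, against 6.27% of all genes), those of Fosb, Fosl2, Nr4a1, Nr4a2, Dusp2, Zfp36, Btg2, Klf4 and Gadd45b. The NF-kB consensus site stood in 7 (25%, against 5.14%): Fos, Fosb, Fosl2, Nr4a1, Ier3, Nfkbia and Tnfaip3. The cyclic AMP response element (CRE, TGACGTCA) stood in 3 (10.7%, against 2.03%), Dusp1, Btg2 and Ppp1r15a. The AP-1 site (TGANTCA) stood in 2 (7.14%, against 8.97%), Zfp36l1 and Tnfaip3. Ier3 and Nfkbia, which rose in MP cells of both genotypes, are shown with their NF-kB sites, Btg2 with its CRE and EGR site, and Gadd45g as the gene that differed most between genotypes, with none of the 5 motifs in the window. Of the other genes with the NF-kB site, Fosb and Fosl2 were called higher in MP cells of WT only. Fos, Nr4a1 and Tnfaip3, which also have it, were called in neither genotype.
Ier3: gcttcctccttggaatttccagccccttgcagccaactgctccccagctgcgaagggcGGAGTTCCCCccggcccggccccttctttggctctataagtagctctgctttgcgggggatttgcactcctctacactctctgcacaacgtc
Nfkbia: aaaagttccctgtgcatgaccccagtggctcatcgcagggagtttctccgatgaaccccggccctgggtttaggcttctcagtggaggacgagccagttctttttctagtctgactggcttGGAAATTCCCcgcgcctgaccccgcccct
Btg2: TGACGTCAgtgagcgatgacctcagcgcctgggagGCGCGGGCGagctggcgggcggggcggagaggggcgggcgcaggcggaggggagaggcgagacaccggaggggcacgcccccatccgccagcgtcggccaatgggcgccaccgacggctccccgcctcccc
Gadd45g: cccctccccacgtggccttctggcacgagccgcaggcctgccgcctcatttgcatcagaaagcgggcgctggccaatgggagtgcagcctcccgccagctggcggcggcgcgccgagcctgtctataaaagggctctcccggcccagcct
They lie at chr17:35821563-35821712, plus strand (Ier3), chr12:55492648-55492797, minus strand (Nfkbia), chr1:134079156-134079321, minus strand (Btg2) and chr13:51846525-51846674, plus strand (Gadd45g). A match of letters is a description of the sequence and not a measured binding site.

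All 33 tested genes had counts in every library. Together the 34 held 0.505% to 0.586% of all counts, and the 5 most abundant held 50.4% to 54.3% of that sum. Per exon length (CPM per kilobase of exon, RPKM, mean of 8 libraries), Junb was highest at 338, followed by Jund at 268, Ier2 at 194, Btg1 at 152, Zfp36 at 149 and Nfkbia at 124. At the low end stood Egr2 at 1.75 RPKM, Nr4a3 at 1.43 and Nr4a2 at 0.534. Atf3 had 12 counts in all 8 libraries together, between 0 and 5 each; the 3 libraries at 0 allow up to 0.155 to 0.223 CPM, for counting error only. Another annotated gene overlaps 9 members (Jun, Junb, Jund, Dusp1, Dusp5, Zfp36, Zfp36l1, Atf3 and Ppp1r15a). No source used here gives the strand setting of the counting, so counts of these 9 may include reads of the overlapping gene.

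**Figure D1:**
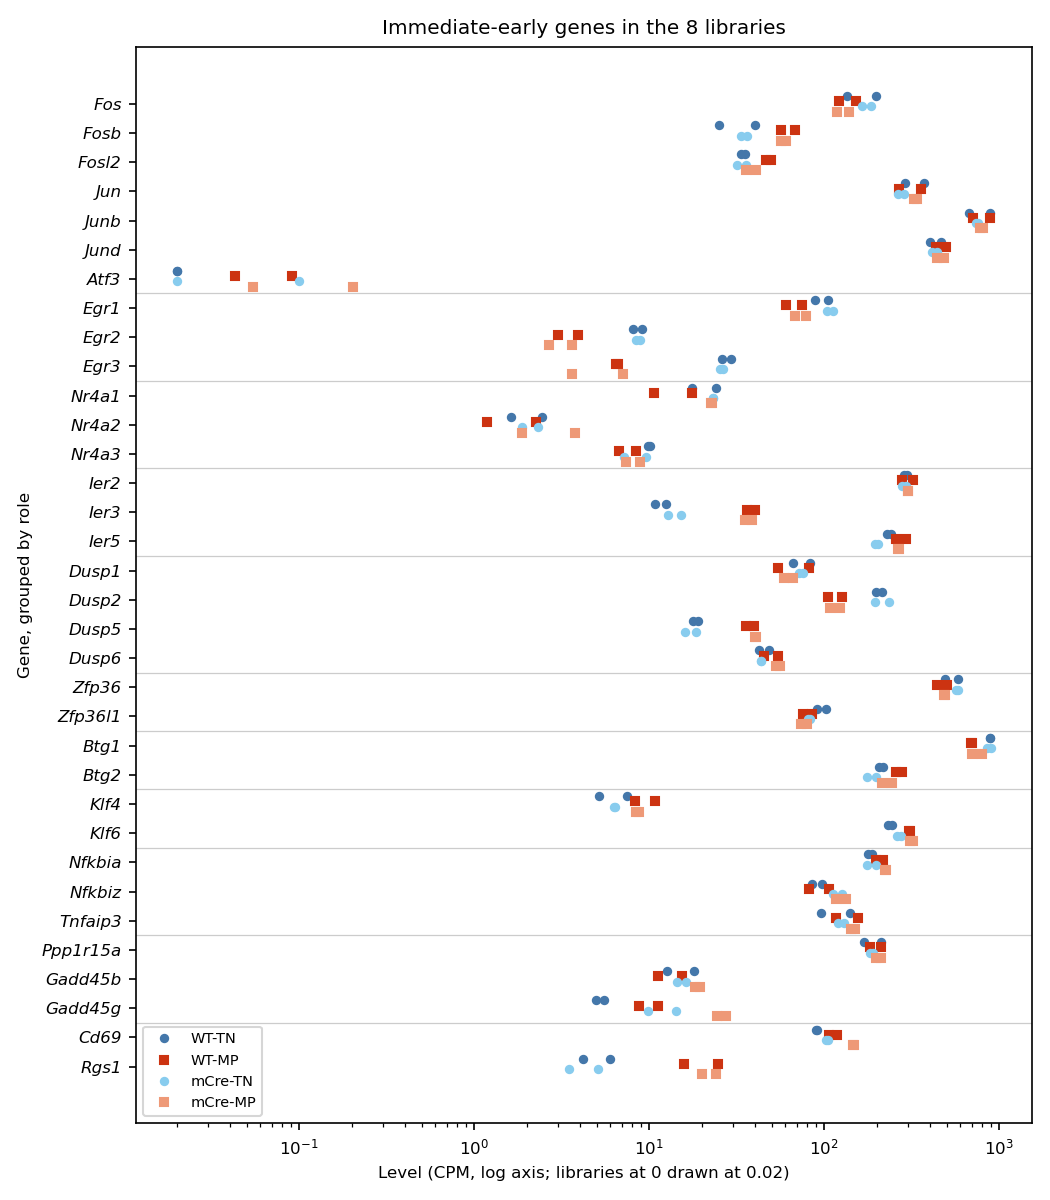
Level of each of the 34 genes in CPM (log axis, zeros drawn at 0.02) in the 8 libraries, 1 point per library, coloured by group and ordered by role. Levels span from Junb, at 669 to 883 CPM, to Atf3, at 0 to 0.204 CPM, and the groups lie side by side for most genes.

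Within WT, the libraries numbered 1 differed from those numbered 2 in the immediate-early genes. In WT-TN, 29 of 33 were higher in library 1, with a median log2 ratio of 0.179; in WT-MP, 28 of 33 were higher, with a median of 0.224. Over all tested genes the medians were 0.002 and 0 and the shares 50.9% and 49.8%. In mCre-TN 16 and in mCre-MP 9 of 33 were higher in library 1, with medians of -0.002 and -0.061. Most members were thus lower in library 1 of mCre-MP. The mCre shares over all tested genes were 51.5% and 50.2%, with medians of 0.005 and 0. In both WT groups 25 genes were higher in library 1, and 10 of them by at least 0.3 on the log2 scale each time: Fos, Jun, Junb, Nr4a1, Nr4a2, Dusp1, Klf4, Tnfaip3, Rgs1 and Gadd45b. In both mCre groups 0 genes were higher in library 1 by that much. For these counts over both groups, the share of all tested genes was not computed. With 29 and 28 of 33 higher in the single WT groups, most genes had to be higher in both.

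**Figure D2:**
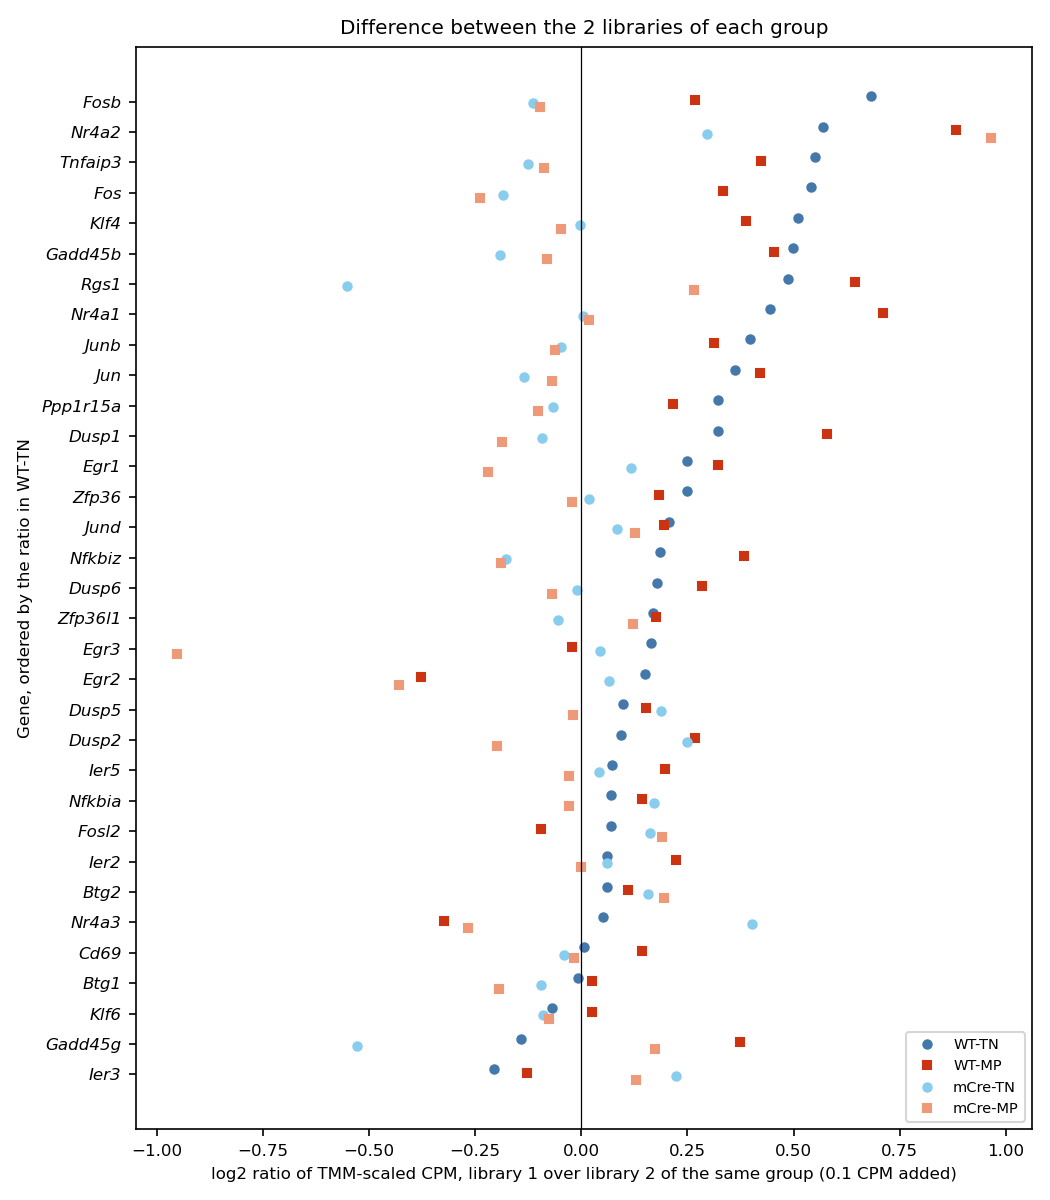
For each of 33 genes, the log2 ratio of TMM-scaled CPM in library 1 over library 2 of the same group (0.1 CPM added), 1 point per group. The WT points lie mostly right of 0, with medians of 0.179 and 0.224, and the mCre points lie around 0 or left of it.

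Sums of other gene lists also differed between these libraries, by differences that were not tested. Upstream regulators of immediate-early transcription summed to 5310 and 5070 CPM in WT-TN 1 and 2 and to 4830 and 4710 CPM in WT-MP. Erythroid and platelet markers summed to 24.3 and 23.6 CPM in WT-TN and to 23 and 14 CPM in WT-MP. The 16 myeloid markers summed to 56.1 and 41.8 CPM in WT-TN 1 and 2, to 60.9 and 41 CPM in WT-MP, to 29.6 and 27.8 CPM in mCre-TN and to 33.3 and 33.5 CPM in mCre-MP. Between 11 and 15 of the 16 had a count in a library. The macrophage genes Csf1r, Hmox1, Vcam1 and C1qa were among those detected in every library. Of the neutrophil genes, Ly6g had 1 count in WT-MP library 2 and 0 elsewhere. S100a8 and S100a9 had 23 and 27 counts in mCre-MP library 2, 2 and 3 in WT-TN library 2, and 0 elsewhere. Csf3r had 3 counts in each WT-TN library and 0 elsewhere. Heat shock genes went the other way, at 3900 and 4100 CPM in WT-TN 1 and 2 and at 4260 and 4610 CPM in WT-MP. Heat shock sums were also higher in library 2 of the mCre groups, at 3570 and 3670 CPM in TN and 4210 and 4300 CPM in MP. Their part in the levels of the immediate-early genes was not tested. Because Fos, Jun, Junb, Nr4a1 and their like varied this much between WT libraries, results are also given without the 2 WT libraries of a number.

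In MP against TN cells, the immediate-early genes split. In WT, 12 of the 33 rose and 5 fell (51.5% called; of all tested genes 31.7% were called, 16.2% higher and 15.6% lower), and in mCre 11 rose and 5 fell (48.5%, against 32.5% of all, 17% higher and 15.5% lower). The median log2 fold change of the 33 was 0.064 in WT and 0.204 in mCre, against -0.002 and 0.002 over all genes; their median absolute change was 0.321 and 0.328, against 0.186 and 0.185. Ier3, Ier5, Dusp5, Btg2, Klf4, Klf6, Nfkbia, Cd69, Rgs1 and Gadd45g were called higher in both genotypes, and Egr2, Egr3, Dusp2 and Btg1 lower in both. In neither genotype were Fos, Jun, Junb, Jund, the 3 NR4A genes, Ier2, Dusp1, Zfp36, Nfkbiz, Tnfaip3, Ppp1r15a or Gadd45b called.

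Calls rest on edgeR's quasi-likelihood test at an adjusted p under 0.05, with Benjamini-Hochberg adjustment over all 12313 genes. Leaving out both WT libraries of a number left 1 library in each WT group. The spread in these fits came from the mCre groups alone, so their p-values do not measure the spread between WT libraries. Without both numbered 1, Egr3, Ier5, Btg2, Nfkbia and Gadd45g lost their WT call. Tnfaip3, Nr4a1 and Egr1, not called in WT with all libraries, had values of 0.3, -0.7 and -0.53. Without both numbered 2, Dusp2, Zfp36l1, Btg1, Klf4 and Nfkbia lost it, and Nr4a1, Egr1 and Zfp36 had values of -0.43, -0.46 and -0.19. In mCre these fits called Fos (-0.41 in both), Jun (0.32 and 0.31) and Fosb (0.78 in both), among others. A fit with the library number as a block within each genotype, chosen after seeing the data, also called Fos lower in WT (-0.25, edgeR adjusted p = 0.00109) and mCre (-0.42, edgeR adjusted p = 5.46e-06). In the same fit Tnfaip3 was higher in both (0.23 and 0.26, edgeR adjusted p = 0.00108 and 0.000272), Zfp36 lower in both (edgeR adjusted p = 0.00567 and 0.000865) and Jun higher in mCre (0.31, edgeR adjusted p = 1.7e-05). Genes not called in the fit of all 8 libraries without a block are therefore not shown to be equal between subsets.

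**Figure D3:**
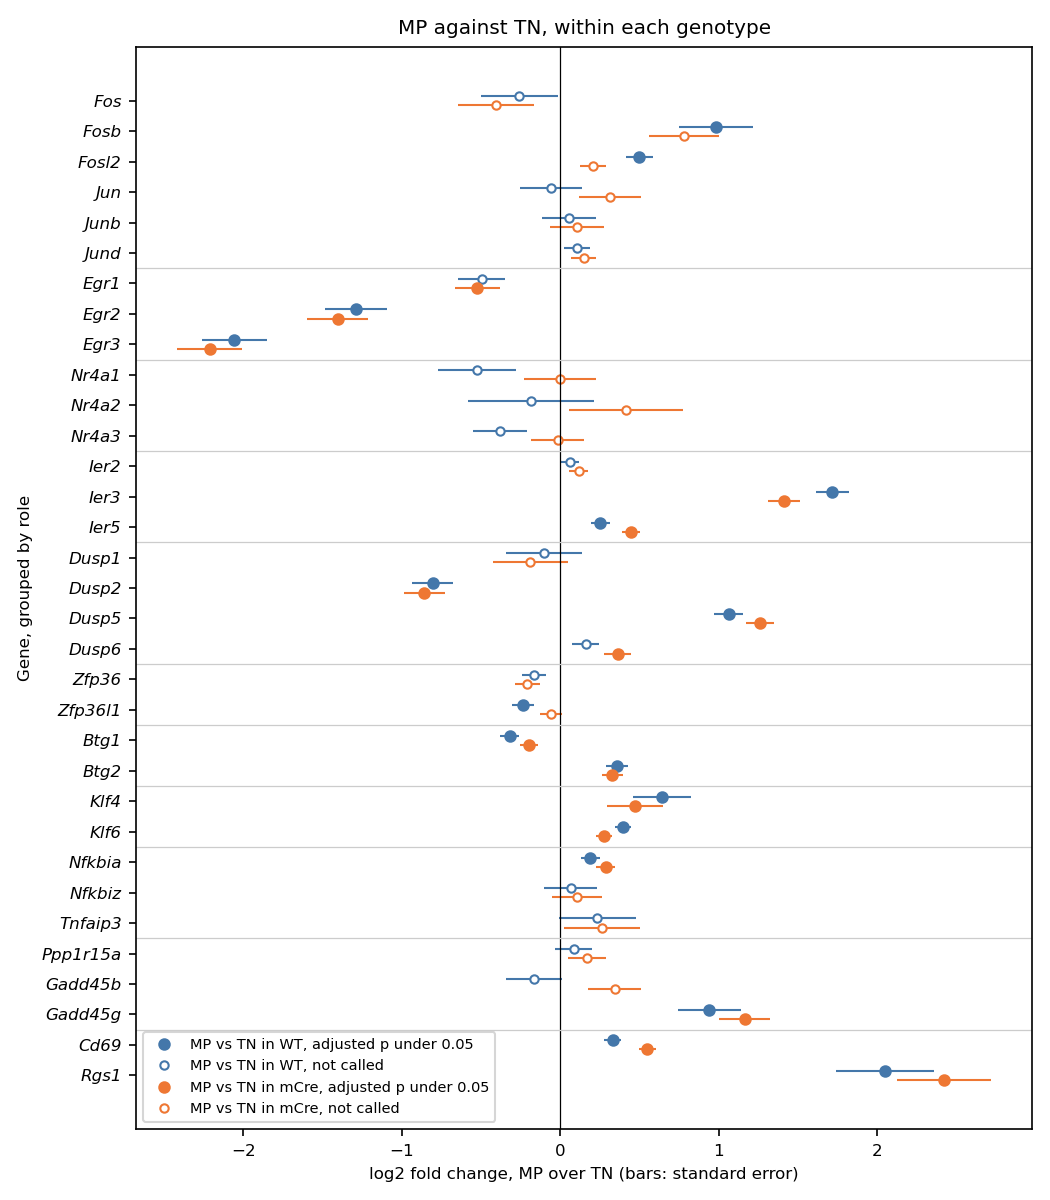
Log2 fold change of MP over TN (x axis, bars are standard errors) for 33 genes in WT and mCre; filled points have an adjusted p under 0.05 (edgeR). The largest falls are those of Egr3 and Egr2 and the largest rises those of Rgs1 and Ier3, in both genotypes.

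The EGR zinc-finger factors, which antigen receptor signals induce in proportion to their strength, were the group that fell most. Egr3 (chr14:70077203-70082614, plus strand) stood at 29.3 and 26.1 CPM in WT-TN and at 6.5 and 6.63 CPM in WT-MP. In mCre it stood at 26.4 and 25.5 CPM in TN and at 3.6 and 7.04 CPM in MP. Every TN library lay above every MP library. The log2 fold change was -2.06 (SE 0.204, edgeR adjusted p = 2.7e-05) in WT and -2.21 (SE 0.207, edgeR adjusted p = 1.68e-05) in mCre. Without both WT libraries numbered 1 the WT value was -1.96 with an edgeR adjusted p of 0.0613.

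Egr2 (chr10:67535475-67542188, plus strand), which restrains T cell activation together with Egr3, stood at 9.05 and 8.12 CPM in WT-TN and 2.99 and 3.93 CPM in WT-MP. In mCre-TN it was at 8.85 and 8.39 CPM, and in mCre-MP at 2.67 and 3.62 CPM. Again the TN and MP libraries did not overlap in either genotype. The fall was 2.45-fold in WT (log2 fold change -1.29, SE 0.195, edgeR adjusted p = 3.56e-05) and 2.65-fold in mCre (-1.4, SE 0.192, edgeR adjusted p = 1.11e-05). Egr1, the most abundant of the 3 at a mean of 19.3 RPKM, was at 105 and 88.3 CPM in TN against 75 and 60.2 CPM in MP cells of WT, and at 113 and 103 CPM against 67.9 and 78.9 CPM in mCre. All 4 TN libraries were above all 4 MP libraries. Egr1 fell in mCre (log2 fold change -0.53, SE 0.143, edgeR adjusted p = 0.0398), a call lost without mCre-TN 1, mCre-MP 1 or mCre-TN 2. In WT the value was -0.49 (edgeR adjusted p = 0.0541). Of 19 alternatives, 12 called Egr1 lower in WT, among them DESeq2 (adjusted p = 0.014), limma voom (0.048) and edgeR with the library number as a block (0.0348). Without both WT libraries numbered 1 or both numbered 2, which left 1 library per WT group, the WT value was -0.53 or -0.46.

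Of the 6 tested AP-1 subunits, which pair as FOS and JUN dimers, 2 rose in WT, 0 were called in mCre and 0 fell in either. Fosb was at 40.2 and 25 CPM in the TN and 68.2 and 56.9 CPM in the MP libraries of WT, and at 33.7 and 36.2 CPM and 56.5 and 60.4 CPM in those of mCre. MP libraries were above TN libraries throughout. It rose in WT (log2 fold change 0.98, SE 0.235, edgeR adjusted p = 0.0348), but leaving out any of 6 libraries (both of WT-MP and all 4 of mCre) ended the call, with edgeR adjusted p between 0.0583 and 0.14. In mCre its value was 0.78 (edgeR adjusted p = 0.0584), and 8 of 19 alternatives called it higher there, among them DESeq2 (adjusted p = 0.0143), limma voom (0.0337) and an edgeR fit of the 2 mCre groups alone (6.82e-07).

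Fosl2, which encodes the FOS relative FRA-2, was at 35.2 and 33.4 CPM in WT-TN and 46.2 and 49.5 CPM in WT-MP, with 35.9 and 31.9 CPM in mCre-TN and 41 and 35.9 CPM in mCre-MP. WT-MP stood above all other groups. The rise in WT was 0.5 on the log2 scale (SE 0.0838, edgeR adjusted p = 0.000116), and the mCre value was 0.2 (edgeR adjusted p = 0.0655).

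Junb, the most abundant subunit per length, was at 883 and 669 CPM in TN against 881 and 712 CPM in MP cells of WT, and at 741 and 761 CPM against 774 and 805 CPM in mCre. Its groups overlapped in WT, where the 2 libraries of a group lay further apart than the subsets. Fos itself had log2 fold changes of -0.26 in WT and -0.41 in mCre (edgeR adjusted p = 0.508 and 0.289). Jun was at -0.06 and 0.31 (edgeR adjusted p = 0.855 and 0.315), and Jund at 0.1 and 0.15 (edgeR adjusted p = 0.378 and 0.205).

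None of the 3 NR4A orphan nuclear receptors, whose transcription reports antigen receptor signalling, was called in the fit of all 8 libraries. Nr4a1, which encodes NUR77, was at 24 and 17.5 CPM in WT-TN and at 17.4 and 10.6 CPM in WT-MP. In mCre it was at 23.3 and 23.1 CPM in TN and at 22.8 and 22.4 CPM in MP. The WT libraries scattered more than the mCre libraries, and WT-MP library 2 was the lowest of the 8. Its log2 fold change was -0.53 in WT (edgeR adjusted p = 0.166) and 0 in mCre (edgeR adjusted p = 0.993). Without WT-MP library 1, which left a lone WT-MP library, the WT value was -0.93. With the library number as a block across all groups (replicate block) it was -0.54 (edgeR adjusted p = 0.0266). Nr4a2 ranged from 1.19 to 3.76 CPM and Nr4a3 from 6.71 to 10.2 CPM over the libraries.

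Among the IER proteins, Ier3 and Ier5 rose and Ier2 was not called. Ier3 (chr17:35821684-35822923, plus strand), a survival factor induced through NF-kB, was at 10.8 and 12.5 CPM in the TN and 36.4 and 40 CPM in the MP libraries of WT, and at 15.1 and 12.8 CPM and 38.4 and 35 CPM in those of mCre. Every MP library lay above every TN library. The rise was 3.29-fold in WT (log2 fold change 1.72, SE 0.107, edgeR adjusted p = 2.05e-10) and 2.66-fold in mCre (1.41, SE 0.099, edgeR adjusted p = 1.27e-09).

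Ier5, a regulator of the heat shock factor HSF1, was at 240 and 228 CPM in TN against 293 and 257 CPM in MP cells of WT, and at 202 and 195 CPM against 263 and 268 CPM in mCre. MP libraries were again the higher ones. It rose by 0.25 on the log2 scale in WT (SE 0.0587, edgeR adjusted p = 0.00263; 0.0788 without WT-MP library 1) and by 0.45 in mCre (SE 0.0585, edgeR adjusted p = 6.66e-06). Ier2 was at 298 and 285 CPM in the TN and 323 and 277 CPM in the MP libraries of WT, and at 293 and 279 CPM and 303 and 303 CPM in those of mCre, with log2 fold changes of 0.06 and 0.12.

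The dual-specificity phosphatases, which switch MAP kinases off, divided by member. Dusp2 (chr2:127336159-127338376, plus strand), a nuclear phosphatase of lymphocytes, was at 213 and 199 CPM in TN against 127 and 106 CPM in MP cells of WT, and at 234 and 196 CPM against 108 and 124 CPM in mCre. All TN libraries were above all MP libraries. It fell 1.75-fold in WT (log2 fold change -0.81, SE 0.129, edgeR adjusted p = 0.00454; 0.0576 without WT-TN library 1) and 1.81-fold in mCre (-0.86, SE 0.128, edgeR adjusted p = 0.00323).

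Dusp5 (chr19:53529109-53542431, plus strand), a nuclear phosphatase of ERK that cytokines of the IL-2 family induce in T cells, moved in the opposite direction. It was at 19 and 17.7 CPM in the TN and 39.7 and 35.8 CPM in the MP libraries of WT, and at 18.4 and 16.1 CPM and 40.3 and 40.8 CPM in those of mCre. All 4 MP libraries lay above all TN libraries. The rise was 2.09-fold in WT (log2 fold change 1.06, SE 0.0924, edgeR adjusted p = 2.89e-08) and 2.39-fold in mCre (1.26, SE 0.0882, edgeR adjusted p = 1.29e-09). Dusp6, the cytoplasmic ERK phosphatase, was at 48.2 and 42.5 CPM in TN against 54.7 and 45 CPM in MP cells of WT, and at 43.3 and 43.3 CPM against 53.1 and 55.6 CPM in mCre. The WT subsets overlapped and the mCre subsets did not. It rose in mCre (0.36, SE 0.0845, edgeR adjusted p = 0.00295) and had a value of 0.16 in WT (edgeR adjusted p = 0.187). Dusp1 was not called (-0.11 and -0.19).

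Of the TTP family, whose zinc-finger proteins bind AU-rich elements and speed the decay of cytokine and early response mRNAs, Zfp36 was at 582 and 488 CPM in the TN and 500 and 442 CPM in the MP libraries of WT, and at 581 and 569 CPM and 483 and 490 CPM in those of mCre. The subsets overlapped in WT and did not in mCre. Its log2 fold changes were -0.17 and -0.21 (edgeR adjusted p = 0.131 and 0.0603). Of 19 alternatives, 6 called it lower in WT and 12 in mCre, among the latter DESeq2 (adjusted p = 0.0241) and edgeR with the replicate block (0.0117). Zfp36l1 was at 102 and 90.7 CPM in TN against 85.3 and 75.8 CPM in MP cells of WT, and at 80.3 and 82.8 CPM against 79.8 and 73.3 CPM in mCre. WT-TN held the 2 highest libraries. Zfp36l1 fell in WT (-0.24, SE 0.0694, edgeR adjusted p = 0.0135; 0.194 without WT-TN library 1 and 0.191 without WT-MP library 2), and its mCre value was -0.06.

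The BTG proteins, which slow proliferation and recruit the deadenylase that shortens mRNA tails, moved in opposite directions. Btg1, highly expressed in quiescent lymphocytes, was at 881 and 884 CPM in the TN and 703 and 694 CPM in the MP libraries of WT, and at 850 and 901 CPM and 698 and 797 CPM in those of mCre. TN libraries were all above MP libraries. It fell in WT (-0.32, SE 0.0574, edgeR adjusted p = 0.000225; 0.0508 without both WT libraries numbered 2) and in mCre (-0.2, SE 0.0572, edgeR adjusted p = 0.0127). The mCre call was lost without mCre-MP library 1 (0.279) or mCre-TN library 2 (0.14).

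Btg2, a p53 target, was at 216 and 207 CPM in TN against 277 and 258 CPM in MP cells of WT, and at 197 and 175 CPM against 244 and 213 CPM in mCre. MP was higher within each genotype, and the mCre libraries were lower than the WT libraries of the same subset. The rise was 0.36 in WT (SE 0.0685, edgeR adjusted p = 0.00082; 0.0642 without both WT libraries numbered 1) and 0.33 in mCre (SE 0.0682, edgeR adjusted p = 0.00154), as log2 fold changes.

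Both KLF factors rose in both genotypes. Klf6 was at 231 and 242 CPM in the TN and 310 and 306 CPM in the MP libraries of WT, and at 259 and 274 CPM and 307 and 323 CPM in those of mCre. The subsets were clear of each other. Log2 fold changes were 0.39 (SE 0.052, edgeR adjusted p = 7.01e-06) in WT and 0.28 (SE 0.0515, edgeR adjusted p = 0.000337) in mCre. Klf4, which restrains the proliferation of naive T cells, was at 7.42 and 5.17 CPM in TN against 10.8 and 8.27 CPM in MP cells of WT, and at 6.35 and 6.32 CPM against 8.45 and 8.71 CPM in mCre. Subsets did not overlap, by a narrow margin in WT. It was called at 0.64 in WT (edgeR adjusted p = 0.0114) and 0.47 in mCre (edgeR adjusted p = 0.0479). The WT call was lost without WT-MP library 1 (0.162) or WT-TN library 2 (0.185), and the mCre call without any of the 4 mCre libraries (0.111 to 0.168).

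Of the feedback inhibitors of NF-kB, Nfkbia, which encodes IkB alpha, was at 188 and 179 CPM in the TN and 217 and 197 CPM in the MP libraries of WT, and at 199 and 175 CPM and 221 and 225 CPM in those of mCre. The MP libraries were the higher ones in each genotype, by less in WT. It rose by 0.19 on the log2 scale in WT (SE 0.0614, edgeR adjusted p = 0.0238; 0.236 without WT-MP library 1 and 0.13 without WT-TN library 2) and by 0.29 in mCre (SE 0.0606, edgeR adjusted p = 0.00112). Nfkbiz, an atypical IkB protein, ranged from 81.8 to 133 CPM and Tnfaip3, which encodes A20, from 95.4 to 156 CPM; neither was called. For Tnfaip3 the values were 0.23 and 0.26 (edgeR adjusted p = 0.554 and 0.486), with WT libraries numbered 1 well above those numbered 2 (140 against 95.4 CPM in TN and 156 against 116 CPM in MP).

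In the stress response and GADD45 group, Gadd45g (chr13:51846678-51848468, plus strand), which activates the p38 and JNK pathway and favours interferon gamma production, was at 4.97 and 5.49 CPM in WT-TN and 11.2 and 8.68 CPM in WT-MP. In mCre it was at 9.85 and 14.1 CPM in TN and 27.5 and 24.3 CPM in MP. Each MP group was clear of its TN group, and mCre-MP was the highest of the 4. The rise was 1.92-fold in WT (log2 fold change 0.94, SE 0.199, edgeR adjusted p = 0.00204; 0.16 without both WT libraries numbered 1) and 2.24-fold in mCre (1.16, SE 0.158, edgeR adjusted p = 4.2e-05).

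Ppp1r15a, which encodes the GADD34 subunit that restores translation after stress, was at 211 and 168 CPM in TN against 212 and 183 CPM in MP cells of WT, and at 183 and 190 CPM against 198 and 212 CPM in mCre. Its WT subsets overlapped, and it was not called (0.08 and 0.17). Gadd45b ranged from 11.3 to 19.4 CPM, with values of -0.17 in WT and 0.34 in mCre (edgeR adjusted p = 0.536 and 0.141).

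Rgs1 (chr1:144242296-144249242, minus strand), which damps chemokine receptor signalling and marks tissue-dwelling lymphocytes, had the largest rise. It was at 5.93 and 4.2 CPM in WT-TN and 24.8 and 15.9 CPM in WT-MP, and at 3.49 and 5.13 CPM in mCre-TN and 24.1 and 20 CPM in mCre-MP. Every MP library was well above every TN library. The rise was 4.13-fold in WT (log2 fold change 2.05, SE 0.312, edgeR adjusted p = 0.00279) and 5.35-fold in mCre (2.42, SE 0.299, edgeR adjusted p = 0.000982).

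Cd69 (chr6:129267325-129275436, minus strand), the early activation antigen that keeps T cells in tissue by removing the S1P receptor from the surface, was at 90.7 and 90.1 CPM in the TN and 118 and 107 CPM in the MP libraries of WT, and at 102 and 105 CPM and 147 and 148 CPM in those of mCre. MP exceeded TN in each genotype, and mCre exceeded WT in each subset. It rose by 0.33 on the log2 scale in WT (SE 0.0558, edgeR adjusted p = 0.000126) and by 0.55 in mCre (SE 0.0537, edgeR adjusted p = 1.54e-07).

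**Figure D4:**
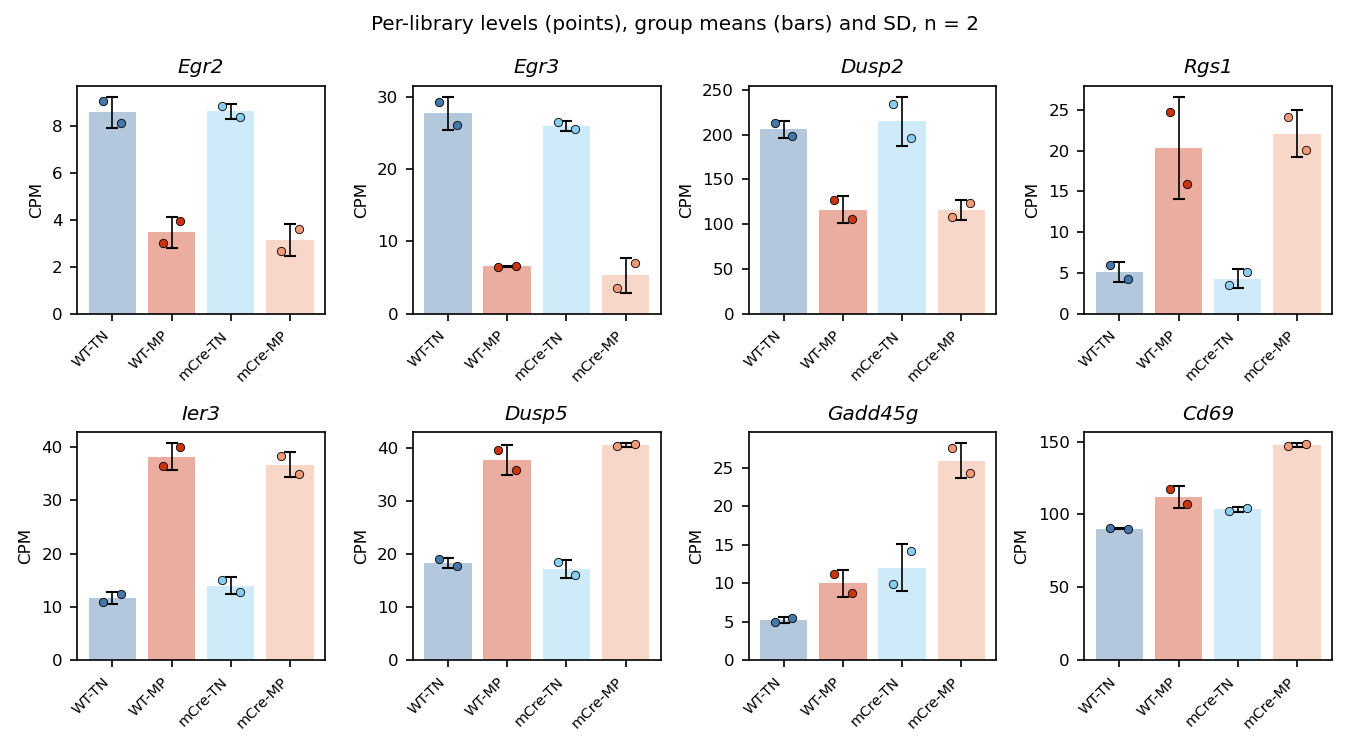
Levels in CPM of 8 genes in the 4 groups: bars are means, error bars SD (n = 2) and points the libraries. Egr2, Egr3 and Dusp2 are lower in MP, Rgs1, Ier3, Dusp5 and Gadd45g are higher in MP, and Gadd45g and Cd69 are also higher in mCre than in WT of the same subset.

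Between genotypes few of these genes differed. In TN cells, 2 of 33 were called (6.06%, against 3.47% of all tested genes, 1.55% higher and 1.92% lower): Gadd45g was higher in mCre and Ier5 lower. In MP cells, 3 were called (9.09%, against 4.04%, 2.08% higher and 1.97% lower): Gadd45g and Cd69 were higher in mCre and Fosl2 lower. The median log2 fold change of the 33 was -0.009 in TN and 0.049 in MP, against -0.001 and 0 over all genes. The median absolute change was 0.09 and 0.11, against 0.106 and 0.102. The calls changed with the WT libraries used. Without both of a number, 1 WT library per subset remained, and the spread came from the mCre groups alone. Without both numbered 1, neither TN call remained, and Tnfaip3, Fosb and Zfp36 had TN values of 0.37, 0.46 and 0.22. Without both numbered 2, Gadd45g lost its TN call, and Jun, Junb and Zfp36l1 had TN values of -0.46, -0.24 and -0.33. In MP, Fosl2 lost its call in both fits.

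Gadd45g was the one member called in both subsets. With the library values given above, mCre exceeded WT 2.22-fold in TN (log2 fold change 1.15, SE 0.195, edgeR adjusted p = 0.00394) and 2.59-fold in MP (1.38, SE 0.161, edgeR adjusted p = 0.000157). The TN call was lost without WT-TN library 1 (edgeR adjusted p = 0.0713) or 2 (0.0923), with values of 1.09 and 1.23; the MP call held under every alternative tried. The mCre-TN libraries, at 9.85 and 14.1 CPM, overlapped those of WT-MP, at 11.2 and 8.68 CPM.

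Cd69 was higher in mCre-MP, at 147 and 148 CPM, than in WT-MP, at 118 and 107 CPM (log2 fold change 0.4, SE 0.0536, edgeR adjusted p = 0.000156), under every alternative tried. In TN its value was 0.18 (edgeR adjusted p = 0.0861), with mCre at 102 and 105 CPM and WT at 90.7 and 90.1 CPM.

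Ier5 was lower in mCre-TN, at 202 and 195 CPM, than in WT-TN, at 240 and 228 CPM (log2 fold change -0.25, SE 0.059, edgeR adjusted p = 0.0235); the call was lost without WT-TN library 1 (0.117), mCre-TN library 1 (0.0825) or mCre-TN library 2 (0.167). Its MP value was -0.05. Fosl2 was lower in mCre-MP, at 41 and 35.9 CPM, than in WT-MP, at 46.2 and 49.5 CPM (-0.32, SE 0.0806, edgeR adjusted p = 0.0296). That call was lost without WT-MP library 1 (0.0557), WT-MP library 2 (0.229) or mCre-MP library 2 (0.31), and in DESeq2 (0.0698).

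The next values are of members that were not called. Nr4a1 in MP was at 22.8 and 22.4 CPM in mCre and at 17.4 and 10.6 CPM in WT, a log2 fold change of 0.68 (edgeR adjusted p = 0.21). Without both WT libraries numbered 1 it was 1.09 and without both numbered 2 it was 0.37, each time against 1 WT-MP library. With the replicate block it was 0.71 (edgeR adjusted p = 0.0284). Nr4a2, Gadd45b and Nfkbiz had MP values of 0.67, 0.5 and 0.41 and were not called (edgeR adjusted p = 0.378, 0.142 and 0.299). Btg2 had values of -0.2 in TN and -0.23 in MP (edgeR adjusted p = 0.14 and 0.0823), and Zfp36l1 in TN was at -0.25 (edgeR adjusted p = 0.0516). With the replicate block both were called (Btg2 at an edgeR adjusted p of 0.0232 in TN and 0.00902 in MP, Zfp36l1 0.019).

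Marker lists were also compared between the genotypes. Of 12 myeloid markers tested, 4 were lower in mCre in TN (Csf1r, C1qa, Hmox1 and Vcam1) and 2 in MP (C1qa and Hmox1), and 0 were higher. These were 33.3% and 16.7%, against 3.47% and 4.04% of all genes called, with the sums per library given above. Of 11 heat shock genes tested, 3 were lower in mCre in TN and 4 in MP (27.3% and 36.4%), and 0 were higher. The 8 erythroid and platelet markers summed to 24.3 and 23.6 CPM in WT-TN 1 and 2, 23 and 14 CPM in WT-MP, 29 and 63.8 CPM in mCre-TN and 25.4 and 46.9 CPM in mCre-MP. Of 5 tested, 0 were called between genotypes in either subset. Hbb-bt set the mCre libraries numbered 2 apart, at 16.6 and 15.3 CPM against 3.96 and 2.83 CPM in those numbered 1. The part of these markers in the genotype differences of the immediate-early genes was not tested.

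**Figure D5:**
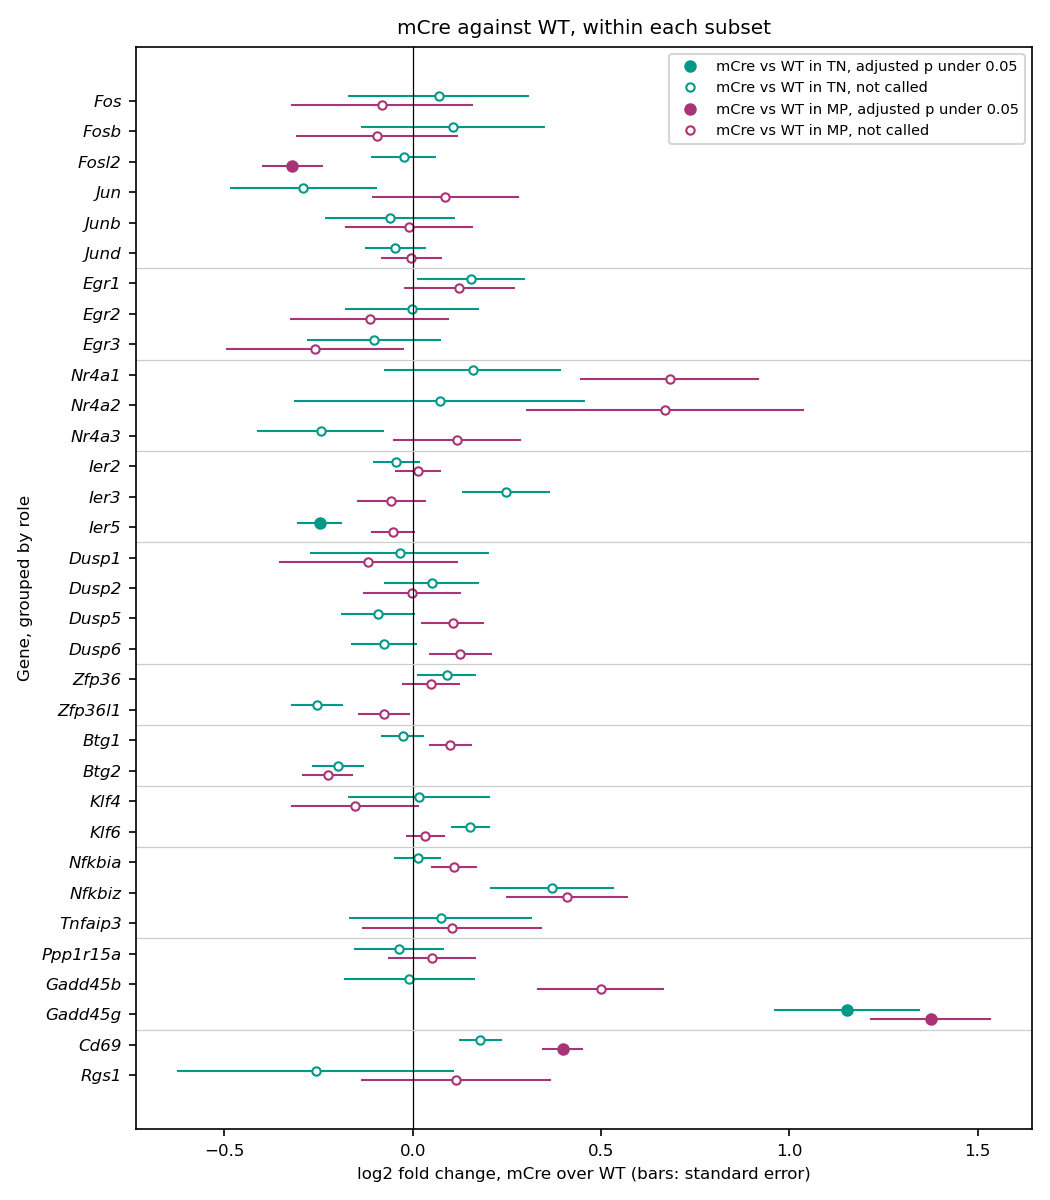
Log2 fold change of mCre over WT (x axis, bars are standard errors) for 33 genes in TN and MP cells; filled points have an adjusted p under 0.05 (edgeR). Gadd45g stands apart at 1.15 and 1.38, Cd69 and Fosl2 are filled in MP and Ier5 in TN, and the other genes are open.

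The genotype by subset interaction, which asks whether the MP to TN difference itself differed between mCre and WT, called 0 of the 33 in edgeR (0.13% of all genes were called, 0.0487% with a positive and 0.0812% with a negative interaction), 0 in DESeq2 and 0 in limma voom; 3 members had an unadjusted p under 0.05 in edgeR. The genes called in a single genotype (Fosb, Fosl2, Zfp36l1, Egr1 and Dusp6) were thus not shown to differ between genotypes in their response. Their interaction values were -0.2, -0.3, 0.18, -0.03 and 0.2 on the log2 scale, with edgeR adjusted p between 0.739 and 1. The median interaction of the 33 was 0.051, against 0.006 over all genes.

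Other genes of the pathway were described from 4 lists: upstream regulators, NF-kB subunits, further early response genes and genes of later activation. Of 37 upstream regulators, 3 rose and 12 fell in MP of WT, and 3 rose and 15 fell in mCre (40.5% and 48.6% called, against 31.7% and 32.5% of all genes). The median log2 fold changes were -0.13 and -0.12. Rasgrp1, which couples the antigen receptor to RAS, fell by 0.76 in WT and by 0.68 in mCre on the log2 scale (edgeR adjusted p = 1.12e-09 and 5.01e-09), and Nras fell by 0.3 and 0.37. Mef2a, a calcium-responsive factor, rose by 0.68 and 0.53, and Nfatc2 by 0.7 and 0.71. Between genotypes, Elk4, a partner of SRF, was higher in mCre in TN (0.26, edgeR adjusted p = 0.0096) and MP (0.21, edgeR adjusted p = 0.0318), and Mapk14, which encodes p38 alpha, was lower in mCre in MP (-0.22, edgeR adjusted p = 0.0242).

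Of 14 NF-kB subunits, regulators and IkB kinases, 5 rose in MP of WT and 7 in mCre, and 0 fell (35.7% and 50% called, against 31.7% and 32.5% of all genes). Nfkb2 rose by 0.23 and 0.41, Relb by 0.29 and 0.43, and Tnip1, a partner of A20, by 0.22 and 0.39; Rel rose by 0.19 and 0.2. In MP cells Relb and Nfkb2 were also higher in mCre than in WT, by 0.3 and 0.21 (edgeR adjusted p = 0.0288 and 0.034), and in TN cells none of the 14 was called. Median log2 fold changes in MP against TN were 0.13 in WT and 0.18 in mCre.

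Among 49 tested genes of a wider list of early response genes, 17 rose and 8 fell in MP of WT, and 17 rose and 11 fell in mCre (51% and 57.1% called, against 31.7% and 32.5% of all genes; median 0.11 and 0.06). Arl4d, a small GTPase, rose by 3.64 and 3.58 on the log2 scale, Rhob by 1.15 and 1.12, and Cish, a target of STAT5, by 1.46 and 2.26. Between genotypes, 2 of the 49 were called in TN and 10 in MP (4.08% and 20.4%, against 3.47% and 4.04% of all genes). Rhob was higher in mCre in both subsets (0.46 and 0.43, edgeR adjusted p = 0.000638 and 0.000226) and Slc2a3 lower in TN (-0.45, edgeR adjusted p = 0.00027). In MP, Arl4d was lower in mCre (-0.78, edgeR adjusted p = 0.000163), Sgk1 was lower (-0.3, edgeR adjusted p = 0.00176) and Pim1 higher (0.38, edgeR adjusted p = 0.000519).

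Of 19 tested genes of later T cell activation, 8 rose and 3 fell in MP of WT and 9 rose and 2 fell in mCre (57.9% called in each, against 31.7% and 32.5% of all genes; median 0.13 and 0.51). Ifng, Xcl1, Ccl3 and Ccl4 were at no more than 0.742 CPM in TN libraries. Tnf was at 28.3 to 32.9 CPM there, and Cd40lg, which fell in MP, at 6.68 to 8.98 CPM. The level of Ifng in WT went from 0.505 ± 0.334 CPM in TN to 31.1 ± 5.82 CPM in MP, and in mCre from 0.187 ± 0.0289 CPM to 28.6 ± 2.44 CPM (mean ± SD, n = 2). Xcl1 reached 28.1 ± 0.299 CPM in WT-MP and 16.5 ± 3.05 CPM in mCre-MP (mean ± SD, n = 2), from 3 and 13 counts over the 2 libraries of WT-TN and mCre-TN; it was lower in mCre-MP than in WT-MP (-0.78, edgeR adjusted p = 0.00201). Tnf rose by 0.83 and 1.05, and was higher in mCre-MP than in WT-MP (0.29, edgeR adjusted p = 0.0345). Slc7a5, the amino acid transporter of activated cells, was higher in mCre in TN (0.52, edgeR adjusted p = 0.000751) and MP (0.62, edgeR adjusted p = 8.94e-05).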

How the data were processed

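RNA-seq of 8 sorted CD8+ T cell libraries was re-analysed from the deposited raw counts, integers for each library and gene symbol. The authors used, per the submitters' processing notes, Trim Galore, HISAT2 and featureCounts with build mm10; no source used here gives versions, annotation, strand setting or the rule for multimapping reads. Library kits were directional, per the labels' protocols. Groups came from the sample titles. Differences were tested with edgeR 4.0.16 (R 4.3.3; TMM scaling, its expression filter, robust quasi-likelihood F test, two-sided) in 1 fit of all 8 libraries with 4 group means; p-values were adjusted (Benjamini-Hochberg) over 12313 genes and called under 0.05. Standard errors are the log2 fold change over the square root of F. CPM are counts scaled to a library's total, without TMM; RPKM divides by the union of exons (GENCODE M21, GRCm38, 1-based coordinates). The procedure was tested on counts simulated with independent libraries, which hold no shift shared by libraries numbered alike.

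The members and gene lists were chosen with earlier results of these data known. Values per library are given for members called in any of 5 comparisons and for the member with the highest mean CPM in each role, others by range; from the other lists, up to 4 genes with the smallest p per comparison. The 7 promoter stretches, and the choice among several annotated starts, were made after the values were seen. Alternatives were other scalings (RLE, total counts), DESeq2 1.42.0, limma 3.58.1 voom, other filters, only the 2 groups compared, a replicate block and each library left out; leaving out both WT libraries of a number and a block within genotype were added after seeing the data. The labels state no block, and the main fit did not treat the library numbers as pairs. Libraries numbered alike deviated together weakly within a genotype (correlation over genes 0.11 in WT and 0.078 in mCre) and not across genotypes (-0.044 to -0.014). A correlation over all genes cannot decide whether libraries numbered alike were paired, and the block fits give values with the numbers taken into account.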

Additional observations from a re-analysis of the deposited data

How the results depend on the processing

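Of 38 calls of single members, 22 held under every alternative; of 717 alternative values, 664 kept the call, 53 lost it and 0 reversed. The 17 members called for MP against TN in WT were 15 to 22 under the alternatives (16 to 17 with a library left out), and the 16 in mCre were 13 to 19 with a library left out. In mCre, 25 were called without both WT libraries numbered 2 and 26 with a replicate block within genotype. With the planned replicate block the counts were 20 in WT, 18 in mCre, 4 in place of 2 for mCre against WT in TN, 5 in place of 3 in MP, and 0 for the interaction. For mCre against WT in TN, 5 were called without the expression filter, 4 with only the 2 groups compared, 4 without both WT libraries numbered 2 and 1 to 3 with a library left out. In MP, 6 were called without the filter, 7 without both WT libraries numbered 1 and 2 to 5 with a library left out. The interaction called 1 member, Jun, with the replicate block within genotype. The cause was not tested. With 1 library or both WT libraries of a number left out, the lone library of a group was assumed to vary like the others. Low counts limited Atf3, which could not be tested; scaling moved the median of all genes to no lower than -0.03 and no higher than 0.013 (log2).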

Other observations

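Heat shock genes, which tissue handling also induces, were tested in the same comparisons. In MP against TN cells 5 of 11 tested rose in each genotype (45.5% called; 31.7% of all genes in WT and 32.5% in mCre) and 0 fell; Bag3, a co-chaperone, rose by 1.44 in WT and 1.53 in mCre on the log2 scale, and Hspa8 by 0.25 and 0.42. Between genotypes, 3 of 11 were lower in TN and 4 in MP (27.3% and 36.4%, against 3.47% and 4.04% of all genes). Dnajb1 was lower in mCre in TN (-0.48, edgeR adjusted p = 4e-05) and in MP (-0.42, edgeR adjusted p = 0.000102), as were Hsph1 (-0.47 and -0.41) and Hspa1b (-1.31 and -1.63), while Dnaja1 was lower in MP (-0.32). Hspa1b shares reads with its near-identical copy Hspa1a, so its counts are uncertain. The summed level was 3570 to 3670 CPM in mCre-TN and 3900 to 4100 CPM in WT-TN. In MP the sums of the genotypes overlapped, at 4210 to 4300 CPM in mCre and 4260 to 4610 CPM in WT.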
